A study of Mus musculus with 8 samples.

Results

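The genes described here are 6 transcription regulators, Tlx3, Helt, Meis1, Meis2, Lmo1 and Lhx2, of 27998 genes in the single-cell matrices and 20608 symbols in the read count table of the sorted libraries. They were chosen by earlier results of these data, in which their levels differed between tumours, cell clusters or sorted groups. Their levels in the single-cell contrast between tumours, and that of Lhx2 in the sorted libraries, are therefore descriptions without a test. All 6 were found in both single-cell libraries' gene lists and in the count table. Helt was not listed in the FPKM table.

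All samples came from Patched 1 deficient mice, and no group without the deficiency was included. This receptor restrains Hedgehog signalling, and its loss can give rise to medulloblastoma, a tumour of the cerebellum. The labels state no age, strain, promoter or pooling of animals. One single-cell library was made from a primary tumour and 1 from a tumour that had relapsed, taken at 3 weeks. The description of the relapsed library names a primary tumour, and its title and source label were followed. A further 6 RNA-seq libraries came from sorted astrocytes, 3 labelled stroma A and 3 labelled stroma B, and no label ties either stroma to the primary or the relapsed tumours.

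Homeobox proteins bind DNA through a homeodomain and fix cell identity during development. Meis1 and Meis2 belong to the TALE class, which pairs with Pbx and Hox proteins on DNA. Tlx3 is a homeobox selector of glutamatergic over GABAergic neurons in the spinal cord. Helt is a basic helix-loop-helix (bHLH) repressor of the Hes and Hey kind that promotes GABAergic fate in the midbrain. Lmo1 holds LIM domains but no DNA-binding domain and bridges other factors through LIM domain binding proteins, and Lhx2 joins LIM domains to a homeodomain and acts in forebrain, eye and glial development. Meis1 is a known gene of cerebellar granule neuron precursors, the cells from which Hedgehog medulloblastoma arises.

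On the mm10 assembly (GRCm38.p6, RefSeq) Tlx3 lies at chr11:33200752-33203588, Helt at chr8:46292043-46294748, Meis1 at chr11:18880428-19019651, Meis2 at chr2:115861264-116067537 and Lmo1 at chr7:109138565-109175207, all on the minus strand. Lhx2 lies at chr2:38339271-38369737 on the plus strand. The 250 bases before the start site are shown for Tlx3, Helt and Meis2, the genes with the largest differences between the tumours, 5′ to 3′ on the strand of the gene, as RefSeq gives them. Capitals mark matches to the motifs searched on both strands. The stretches are chr11:33203589-33203838 for Tlx3, chr8:46294672-46294921 for Helt and chr2:116064620-116064869 for Meis2. The listed start sites of Helt and Meis2 lie inside the annotated genes.
Tlx3: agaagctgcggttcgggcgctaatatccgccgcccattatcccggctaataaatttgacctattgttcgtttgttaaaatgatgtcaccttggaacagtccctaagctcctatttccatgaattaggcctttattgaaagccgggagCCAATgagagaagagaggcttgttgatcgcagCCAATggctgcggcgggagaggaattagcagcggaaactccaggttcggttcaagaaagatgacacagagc
Helt: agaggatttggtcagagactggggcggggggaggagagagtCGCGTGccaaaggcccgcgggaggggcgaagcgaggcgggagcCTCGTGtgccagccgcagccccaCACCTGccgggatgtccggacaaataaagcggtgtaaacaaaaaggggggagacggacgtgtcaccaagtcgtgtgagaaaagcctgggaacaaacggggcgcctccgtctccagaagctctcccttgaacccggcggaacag
Meis2: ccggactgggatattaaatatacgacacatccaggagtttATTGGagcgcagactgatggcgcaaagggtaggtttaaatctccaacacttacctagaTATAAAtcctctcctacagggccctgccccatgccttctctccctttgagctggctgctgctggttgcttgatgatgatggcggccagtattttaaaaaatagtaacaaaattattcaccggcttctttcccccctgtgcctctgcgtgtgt

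A set of 7 motifs was searched, each with its background share among stretches of the same length before 32851 mouse start sites. The E-box, written CANNTG, is the site of bHLH dimers and was found in 66.2% of them. The bHLH-Orange box, bound by repressors of the Helt kind and written CACGNG, was found in 23.5%, and a site can match both of these motifs. The half-site of Meis proteins, TGACAG, was found in 15.9%, and the homeodomain core TAATTA, which LIM homeodomain proteins bind, in 4.84%. The Gli core, CACCCA, through which Hedgehog signalling acts, was found in 19.3%. The general promoter elements CCAAT and TATAAA were found in 33.8% and 12.4%. Upstream of Tlx3 there were 2 matches to the CCAAT element, beginning 103 and 71 bases before the start, and no other match. Upstream of Helt there were 1 E-box at 143 bases and 2 bHLH-Orange boxes at 209 and 166 bases, both on the opposite strand. Upstream of Meis2 there were 1 CCAAT element at 210 bases, on the opposite strand, and 1 TATA element at 152 bases. The Meis1 stretch held 1 E-box, 2 Gli cores and 1 CCAAT element. The windows of the 2 listed starts of Lmo1 overlap and share the same E-box and homeodomain core, and the second also held 1 bHLH-Orange box. The first of the 2 starts of Lhx2 had 1 Gli core and the second had no match. These are letters in a window and describe no binding.

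In the granule lineage, the cells that carry the tumour, Tlx3 was high in the relapsed tumour and low in the primary, Helt and Meis2 were found almost wholly in the primary, Lmo1 and Lhx2 were moderately higher in the relapsed tumour, and Meis1 was abundant in both. This lineage held 7375 of 8548 kept cells of the primary library and 6919 of 7369 of the relapsed library, with median depths of 5625 and 6966 UMIs (unique molecules counted per cell). The class was built here from clusters that carry granule precursor or granule neuron markers. Barhl1, a homeobox gene of that lineage, had a UMI in 87.3% of its primary and 94.8% of its relapsed cells, and Atoh1, the bHLH gene that defines granule precursors, in 48.8% and 66.7%. Levels are UMIs pooled over cells and scaled to counts per 1e6 UMIs (CPM), with 95% Poisson intervals, and shares are of cells with at least 1 UMI, with exact Clopper-Pearson intervals. These intervals cover counting error only: with 1 library per tumour state there is no replicate and no test, and a difference between the states cannot be told apart from one between 2 tumours.

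Tlx3 had 513 UMIs in primary and 4747 in relapsed granule lineage cells. Its level was 84.5 CPM (82.2–87.0) in relapsed against 11.2 (10.3–12.2) in primary cells, 7.53-fold higher (6.87–8.27). The share of cells with a UMI was 6.06% (5.53–6.63) and 35.0% (33.9–36.2). Cells with Tlx3 also held more of it in the relapsed tumour. Their mean was 1.96 UMIs against 1.15, and 40.7% of them held 2 or more against 12.8%. The highest single cell had 27 UMIs in the relapsed and 4 in the primary library, and 159 relapsed cells held 5 or more against 0 primary cells.

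Helt had 484 UMIs in 302 primary cells and 4 UMIs in 3 relapsed cells. The level was 10.6 CPM (9.67–11.6) against 0.0712 (0.0194–0.182), a log2 ratio of −7.22 (−9.10 to −5.85) from those 4 UMIs. The share of cells was 4.09% (3.65–4.57) and 0.0434% (0.00894–0.127). Of the primary cells with Helt, 36.1% held 2 or more UMIs, with a highest count of 7.

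Meis2 had 766 UMIs in 258 primary cells and 0 UMIs in 6919 relapsed cells. Its primary level was 16.8 CPM (15.6–18.0) and its primary share 3.50% (3.09–3.94). With a floor of 3 UMIs in place of 0 over all relapsed granule lineage cells, its level was 314-fold lower in the relapsed library. This floor is a set value and not a limit: the interval of the ratio, relapsed over primary, reached up to 0.00393. The share of relapsed cells with a Meis2 UMI, 0 of 6919, has an exact upper limit of 0.0533%. Few cells held much of it: the mean was 2.97 UMIs per primary cell with Meis2, 54.7% of those cells held 2 or more, 47 held 5 or more and the highest held 21.

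Meis1, the paralogue of Meis2, had 7322 primary and 7281 relapsed UMIs. The level was 160 CPM (157–164) and 130 (127–133), a log2 ratio of −0.31, while the share of cells was 58.5% (57.4–59.7) and 60.8% (59.6–61.9). Level and share thus moved in opposite directions, and no order is read from the share, since the relapsed cells were deeper.

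Lmo1 had 569 and 1140 UMIs, and its relapsed level of 20.3 CPM (19.1–21.5) was 1.63-fold the primary one of 12.5 (11.4–13.5). Lhx2 had 964 and 2179 UMIs and differed by a fold of 1.84, with 38.8 CPM (37.2–40.5) in relapsed and 21.1 (19.8–22.5) in primary cells. Their shares of cells were 6.33% against 12.3% for Lmo1 and 11.6% against 25.0% for Lhx2. So 3 of the 6 genes, Tlx3, Lmo1 and Lhx2, were higher in the relapsed granule lineage and 3 were lower.

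**Figure D1:**
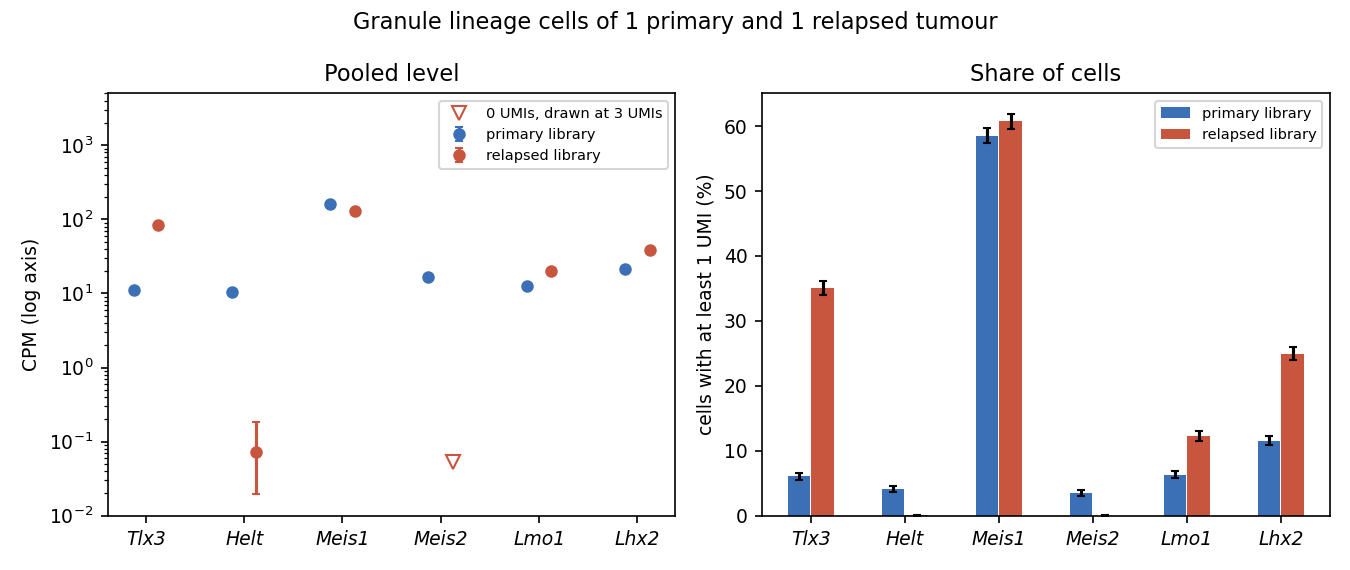
Left, pooled level of the 6 genes in CPM on a log axis, in granule lineage cells of the primary (blue) and relapsed (red) library, with 95% Poisson intervals; right, share of cells with at least 1 UMI, with 95% Clopper-Pearson intervals. Tlx3 stands at 11.2 and 84.5, Helt at 10.6 and 0.0712, and Meis2, at 0 UMIs in the relapsed library, is drawn as an open triangle at 3 UMIs.

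Over the 6079 genes with at least 20 CPM in either library's granule lineage, 2.94% were 2-fold or more higher in the relapsed library and 3.54% were 2-fold or more lower, and the median log2 ratio was −0.068. Of the members only Tlx3 was among those 2-fold or more higher. Helt and Meis2 lay below 20 CPM in both libraries and so were not among the 6079, and Lmo1 (1.63-fold), Lhx2 (1.84-fold) and Meis1 lay within 2-fold. Nothing is read from these counts, since the contrast was used to choose the genes.

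The relapsed cells were deeper, so each cell was also thinned to 2000 UMIs, which left out no granule lineage cell. The share with Tlx3 was then 2.24% (primary) and 12.2% (relapsed), with Helt 1.80% and 0.0289%, with Meis1 27.7% and 23.6%, with Meis2 1.87% and 0%, with Lmo1 2.21% and 4.03%, and with Lhx2 4.11% and 7.43%. At equal depth the share with Meis1 was lower in the relapsed library, as its level was. Microglia and macrophage-like cells, which should lack these genes, were used as a gauge of free RNA in the droplets. They had a Tlx3 UMI in 2.33% of 215 primary and 3.23% of 31 relapsed cells, at median depths of 6056 and 11083 UMIs, and Lhx2 had the same shares. The 4 Tlx3 UMIs of the relapsed cells lay in a single cell, as did the 2 Lhx2 UMIs. Whether these were free RNA was not tested. Lmo1 was found in 2.33% and 0%, Helt in 0.465% and 0%, Meis1 in 12.1% and 9.68%, and Meis2 in none of either. The unthinned granule lineage shares lay above these for Tlx3, Meis1, Lmo1 and Lhx2 in both libraries, and for Helt and Meis2 in the primary.

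Within each tumour the genes differed in which cells held them. The granule lineage fell into 7 clusters of almost only primary cells and 6 of almost only relapsed cells, so a cluster cannot be compared with its own counterpart in the other library. Cluster 1 (primary) and 0 (relapsed) had Atoh1 at 234 and 351 CPM with the cycling gene Mki67 at 23.8 and 27.6, and are called low-Mki67 precursors here; Lmo1 itself is among the leading genes of cluster 0. Leading genes marked clusters 5 and 3 as S phase, 7 and 4 as G2/M, and 2 and 10 as differentiating neurons. Cluster 6 (relapsed) was an early differentiating state, clusters 12 and 9 were led by mitotic genes such as Cenpa and Cdc25c, and clusters 8 and 13 (both primary) were led by Hox genes. Because clusters were formed from all genes, their differences are descriptions.

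Tlx3 was present throughout the relapsed tumour. Its lowest relapsed cluster, the early differentiating cluster 6 (57.6 CPM, 51.9–63.8), lay above its highest primary cluster, cluster 12 (16.7, 12.3–22.2). The highest was the G2/M cluster 4 at 107 CPM (102–113), with a UMI in 58.2% of its cells at a median depth of 11985.5 UMIs. Next came clusters 10 (92.2, 82.1–103.1), 9 (87.9) and 0 (83.8), whose intervals overlap. That of cluster 10, where 30.7% of cells had a UMI at a median depth of 4455, also overlaps that of cluster 4. The S phase cluster 3 was at 70.5. In the primary tumour the lowest Tlx3 levels were in the Hox clusters, 6.16 CPM (4.32–8.53) in cluster 8 and 5.58 (3.36–8.71) in cluster 13.

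Helt was found mainly in undifferentiated primary cells. It was highest in the low-Mki67 precursor cluster 1, at 21.0 CPM (18.1–24.1), and lowest in the differentiating cluster 2, at 0.647 (0.210–1.51, 5 UMIs in 1734 cells). The S phase cluster 5 was at 9.96 and the G2/M cluster 7 at 7.95, with intervals that overlap, and the Hox cluster 8 at 15.1 (12.1–18.6). No relapsed cluster exceeded 3 UMIs.

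Lmo1 followed a like course in both tumours. Its highest levels were in the low-Mki67 precursors, 20.7 CPM (17.9–23.9) in primary cluster 1 and 41.3 (37.9–45.0) in relapsed cluster 0. The primary S phase cluster 5, at 19.5 (16.5–22.9), could not be told from cluster 1 by counting error. Its lowest were in the differentiating cells, 1.81 (0.990–3.04) in cluster 2 and 2.71 (1.24–5.15) in cluster 10. Meis1 ran the other way, with its highest levels in differentiating cells, 195 CPM (185–205) in cluster 2 and 243 (226–260) in cluster 10, against 154 and 122 in the low-Mki67 precursors. The Hox cluster 8 overlapped cluster 2, at 190 (179–201). So the lower Meis1 level of the relapsed tumour was not found in every state: the relapsed differentiating cluster was the highest of all 13.

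Lhx2 was present in every state. It lay between 11.4 CPM (cluster 12) and 26.5 (S phase cluster 5) in the primary and between 28.0 (cluster 9) and 52.3 (48.6–56.3, S phase cluster 3) in the relapsed tumour. All relapsed clusters lay above all primary clusters for Lhx2, though the intervals of primary cluster 5 (23.0–30.4) and relapsed cluster 9 (23.8–32.7) overlap.

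**Figure D2:**
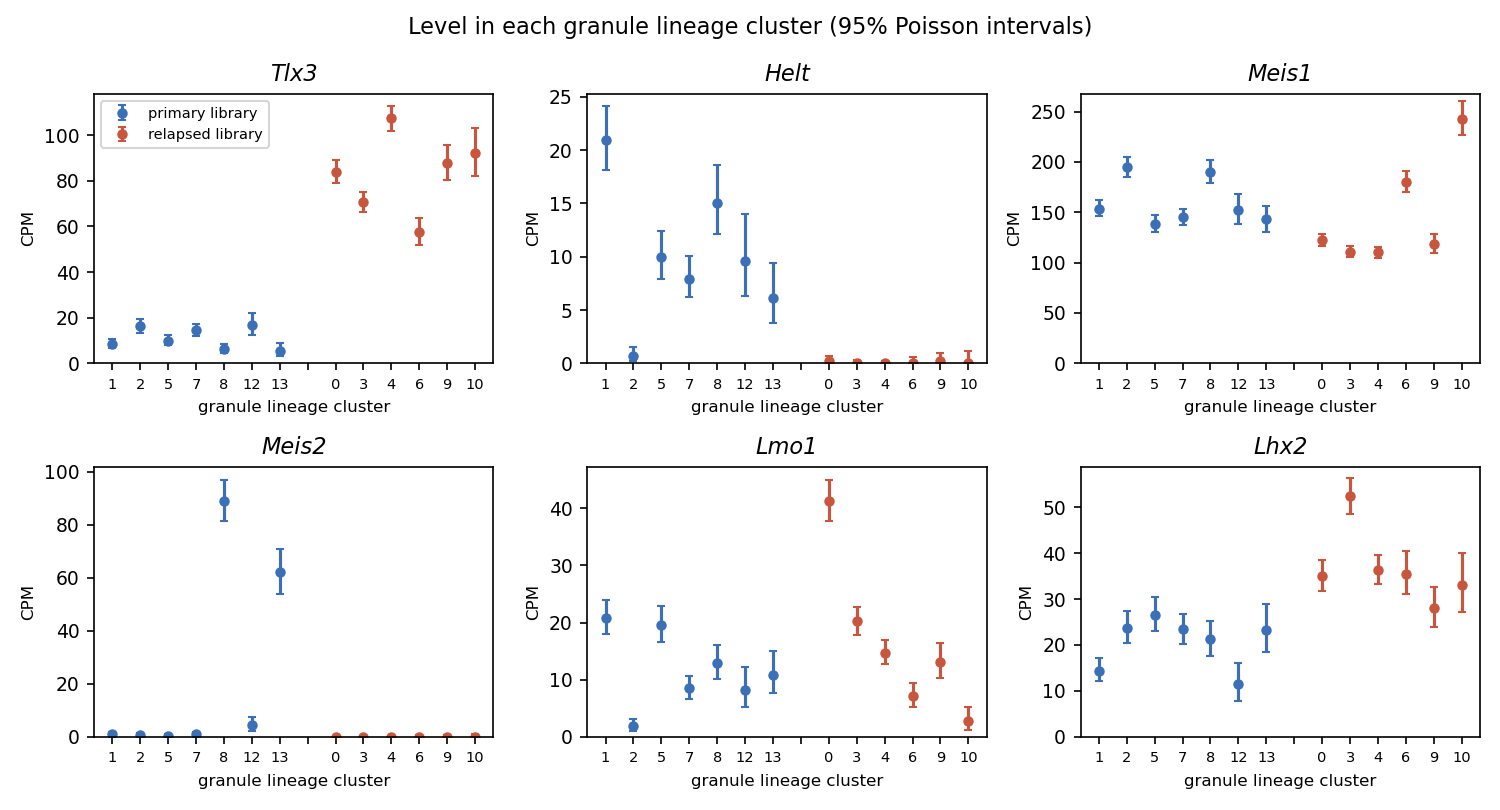
Level of each gene in CPM, on linear axes with their own scales, in the 7 primary (blue) and 6 relapsed (red) granule lineage clusters, with 95% Poisson intervals. Tlx3 is higher in every relapsed than in every primary cluster, Meis2 stands out in clusters 8 and 13, and Lmo1 is lowest in the differentiating clusters 2 and 10 while Meis1 has its highest point in each library there.

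Meis2 was concentrated in the 2 Hox clusters of the primary tumour. Its level was 88.9 CPM (81.4–96.9) in cluster 8, where Mki67 was at 30.3 CPM. It was 61.9 (53.9–70.9) in cluster 13, where Mki67 was at 241, and between 0.259 and 4.27 in the other 5 primary clusters. Of 258 primary granule lineage cells with a Meis2 UMI, 232 (89.9%) lay in these clusters, which hold 1263 of the 7375 cells. Hox genes pattern the hindbrain behind the cerebellum, and Meis proteins are their known partners. Cells with at least 1 Hox UMI, whatever their cluster, had 69.1 CPM of Meis2 and the others 3.28, at median depths of 6793 and 5435 UMIs. Tlx3 was lower in the cells with a Hox UMI, at 6.84 against 12.4 CPM. Helt (10.1 and 10.7), Lmo1 (11.6 and 12.7) and Lhx2 (22.9 and 20.6) differed little between them.

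The Engrailed genes, which mark the midbrain and anterior hindbrain, showed the reverse. They and the Hox genes named here were picked after their values were seen. En1 had 0 UMIs in cluster 8 and 3 in cluster 13, against 5.56 to 19.3 CPM in the other primary clusters. Hoxb3 was at 65.9 and 46.4 CPM in clusters 8 and 13 and between 0.568 and 7.48 in the others, and Hoxb2 at 179 CPM in cluster 8. The relapsed granule lineage had 0 UMIs of Hoxa2, Hoxb2 and Hoxb3, 81 of En1 (1.44 CPM, against 8.23 in the primary) and 498 of En2 (8.87 CPM, against 3.44). Meis2, too, had 0 UMIs there. Without the Hox clusters, an alternative chosen after seeing the data, the primary tumour kept 36 Meis2 UMIs (0.988 CPM). Against a floor of 3 UMIs the relapsed level was 18.5-fold lower, with an upper limit of 0.0700 for relapsed over primary. The log2 ratio of Tlx3 was then 2.75 and that of Helt −7.17.

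**Figure D3:**
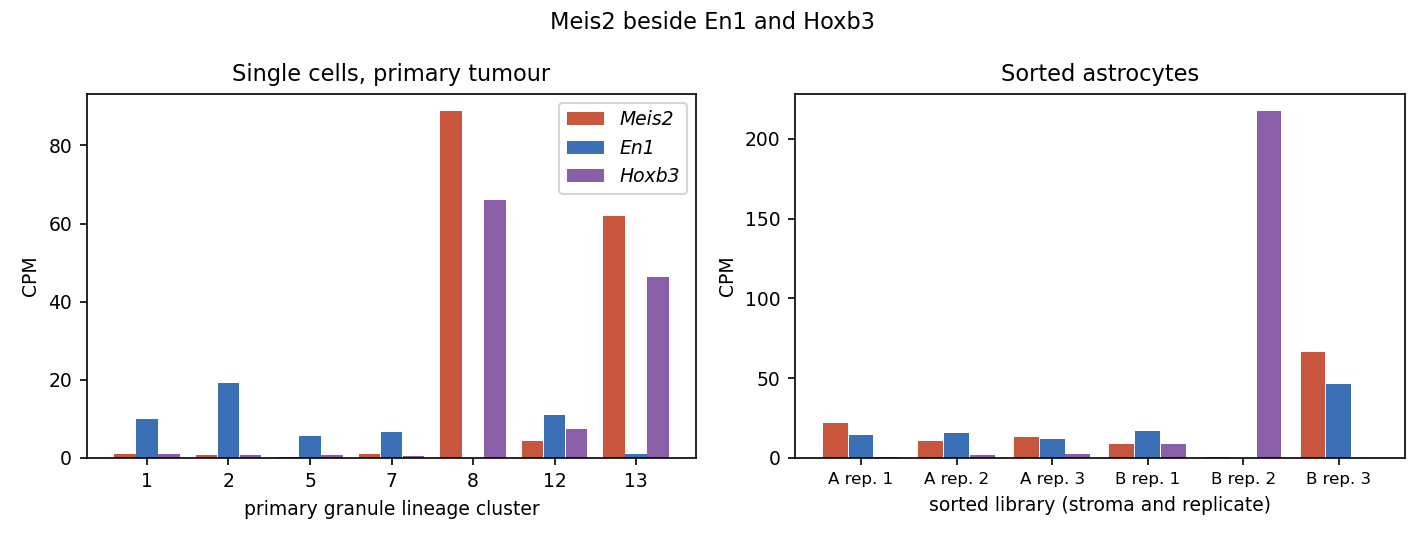
Levels of Meis2 (red), En1 (blue) and Hoxb3 (purple): left, in CPM in the 7 granule lineage clusters of the primary tumour; right, in CPM in the 6 sorted libraries, 1 bar per gene and library. Meis2 and Hoxb3 are high together in clusters 8 and 13, whereas the sorted library with most Hoxb3 (217.5 CPM, stroma B replicate 2) has the least Meis2 (0.355).

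Outside the granule lineage, several of the genes were found in glial cells. There were 116 primary and 69 relapsed astrocyte-like cells, whose median depths of 4735 and 16217 UMIs differed widely. In the relapsed ones Lmo1 was at 83.8 CPM (68.4–102) against 19.8 (11.1–32.6) in their primary counterparts, Lhx2 at 47.2 (35.8–61.0) against 14.5 (7.23–25.9), and Tlx3 at 39.9 (29.5–52.7) against 3.95 (3 UMIs). Meis1 and Helt were lower in the relapsed ones, Meis1 at 49.6 (37.9–63.7) against 167 (139–199) and Helt at 0 UMIs against 31.6 CPM (20.3–47.0). Oligodendrocyte precursor-like cells, 208 and 34 in number, held the highest Lmo1 of the named classes, 65.4 CPM (49.2–85.1) for the primary and 169 (133–213) for the relapsed cells. Their Meis2 count was 40 UMIs (47.5 CPM, 34.0–64.7) for the primary and 0 for the relapsed cells, and Helt was at 0 UMIs in both. The primary and relapsed precursor-like cells came from different clusters, 15 and 19.

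Granule lineage RNA was present in these glial classes: Barhl1 was at 216 and 103 CPM in astrocyte-like and at 54.7 and 37.1 in oligodendrocyte precursor-like cells, against 481 and 644 in the granule lineage. The genes were therefore set against Barhl1, since free RNA of granule cells would carry both in the ratio found there. Per 100 Barhl1 UMIs, relapsed granule lineage cells had 3.15 of Lmo1, astrocyte-like cells 81.1 and oligodendrocyte precursor-like cells 456. For Tlx3 the relapsed ratios were 13.1 in the granule lineage, 38.6 (27.2–54.0) in astrocyte-like and 125 in oligodendrocyte precursor-like cells. For Meis2 the primary ratios were 3.48 in the granule lineage and 87.0 (55.5–136) in oligodendrocyte precursor-like cells. Helt had a primary ratio of 2.20 in the granule lineage and 14.6 (9.11–22.5) in astrocyte-like cells. Several other ratios also lay above the granule lineage. Relapsed Lhx2 was at 45.7 (32.9–62.8) in astrocyte-like and 81.2 (36.0–180) in oligodendrocyte precursor-like cells, against 6.03. Primary Meis1 was at 77.4 (60.9–98.2) and 73.9 (46.0–118) in these classes, against 33.3. In primary oligodendrocyte precursor-like cells Tlx3 was at 23.9 (11.2–46.9) and Lmo1 at 120 (79.3–181), against 2.33 and 2.59. Those that follow did not stand apart from the granule lineage. In relapsed microglia and macrophage-like cells Tlx3 was at 33.3 (7.84–110), on 12 Barhl1 UMIs and on 4 Tlx3 UMIs from a single cell. The interval takes these UMIs as independent. The ratio alone does not set the glial Tlx3 apart from these cells. Primary astrocyte-like cells had a Tlx3 ratio of 1.83 (0.373–5.44) against 2.33 in the granule lineage. The primary ratios of Lhx2 were 6.71 (3.28–12.3) in astrocyte-like and 4.35 (0.511–16.6) in oligodendrocyte precursor-like cells, against 4.38.

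The relapsed astrocyte-like values rested on few cells. A sub-cluster of 26 relapsed astrocyte-like cells held 77 of the 103 Lmo1 and 40 of the 58 Lhx2 UMIs, at 139 CPM (110–174) and 72.1 (51.5–98.2). A second relapsed sub-cluster, of 20 cells, had Lmo1 at 36.1 (18.6–63.0) and Lhx2 at 21.0 (8.46–43.3). These lay close to a primary sub-cluster of 25 cells, at 43.1 (15.8–93.8) and 21.6 (4.44–63.0). The sub-clusters split by library, so none of them can be compared with its own counterpart.

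The Helt of the astrocyte-like class came mainly from 1 group of cells. A sub-cluster of 48 primary cells had 22 of the 24 UMIs, from 8 cells, at 87.1 CPM (54.6–132). Its astrocyte markers were weak, with Aqp4, the water channel of astrocyte end-feet, at 3.96 CPM and the glutamate transporter Slc1a3 at 360. In the sub-cluster of 25 primary cells, Aqp4 was at 1379 CPM and Slc1a3 at 4612, and Helt had 2 UMIs. Prm1, a sperm protamine gene, was found across the relapsed library, at 12969 and 12152 CPM in the 2 relapsed astrocyte-like sub-clusters, 4061 in oligodendrocyte precursor-like cells and 59.1 in the granule lineage, where 17.0% of cells had a UMI. It had 0 UMIs in the primary cells of each of these classes. In the sorted libraries described below Prm1 differed within both groups. It was at 265, 0.138 and 0.112 CPM in replicates 1 to 3 of stroma A, and at 0, 225 and 486 in those of stroma B. Its part in the differences was not tested.

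Meis2 in the relapsed library was confined, among the 7369 kept cells, to 3 small classes: 68 of its 89 UMIs lay in 13 endothelial-like cells (290 CPM, 10 of the cells), 19 in 122 pituitary-like cells and 2 in fibroblast-like cells. In the primary library 21 endothelial-like cells had 0. Pituitary-like cells, found only in the relapsed library, also held Lmo1 at 29.7 CPM (22.3–38.7) and little Tlx3 (4.95) or Lhx2 (2.75).

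**Figure D4:**
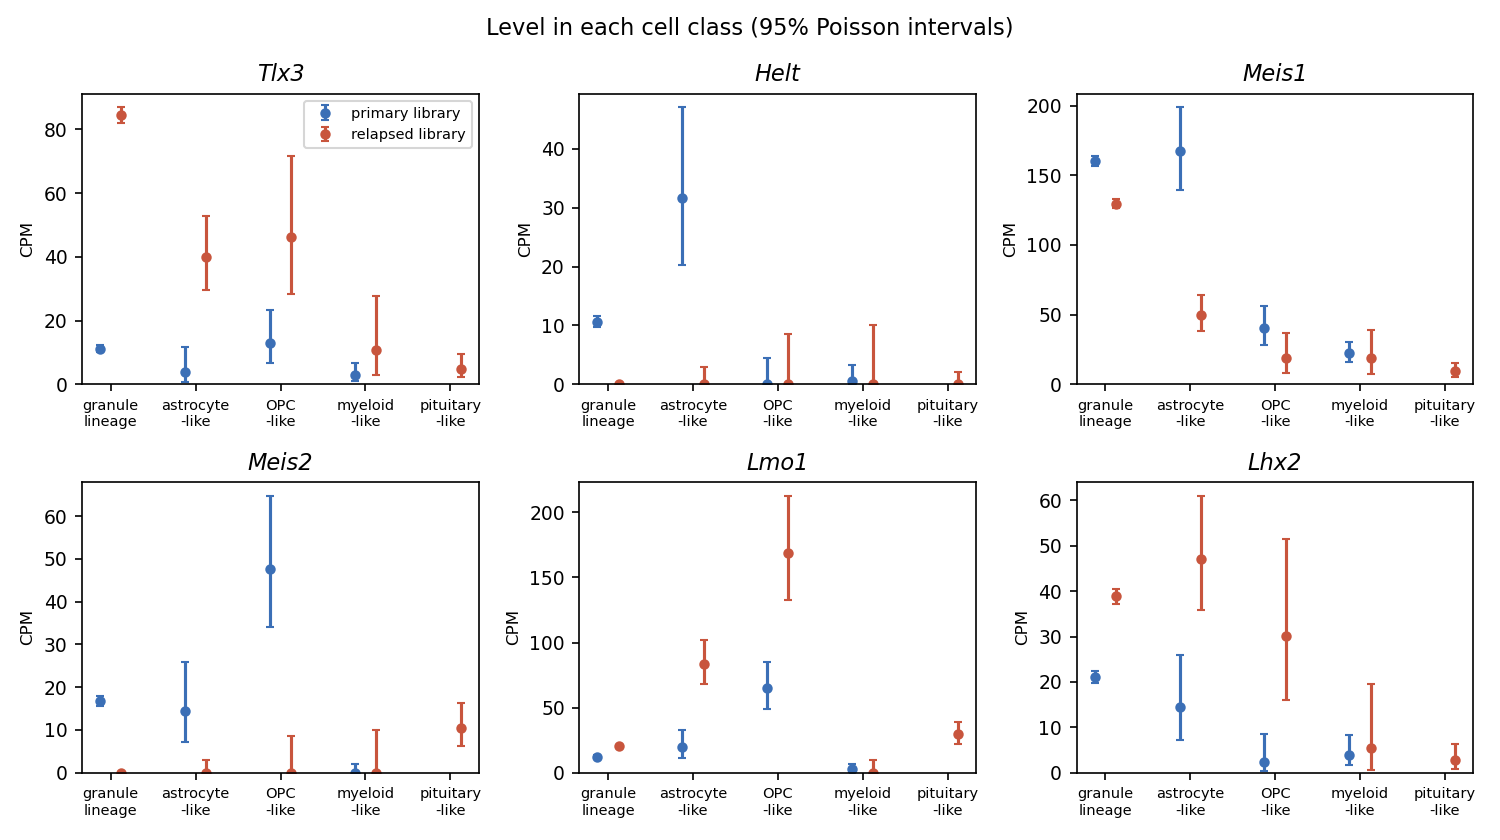
Level of each gene in CPM, on linear axes with their own scales, in 5 cell classes of the primary (blue) and relapsed (red) library, with 95% Poisson intervals; OPC-like stands for oligodendrocyte precursor-like and myeloid-like for microglia and macrophage-like, and no primary cell was pituitary-like. Tlx3 is highest in the relapsed granule lineage, Lmo1 in oligodendrocyte precursor-like cells and Helt in primary astrocyte-like cells.

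Cells that held 2 of the 6 genes were counted against the number that the shares of both genes give within clusters, as a description. At 2000 UMIs per cell, 200 relapsed cells held both Tlx3 and Meis1, where the product of the shares within clusters gives 197. Tlx3 with Lhx2 was found in 60 cells (62.0 from the product) and Tlx3 with Lmo1 in 39 (33.5). In the primary tumour Meis1 with Lhx2 was found in 80 cells (84.6) and Meis1 with Meis2 in 47 (40.2). Tlx3 and Helt shared 1 primary cell (2.33).

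For each gene the transcripts with the most similar profile over clusters were listed, in the library where the gene was higher. Over 9 relapsed clusters, Tlx3 was closest to Mcrs1 (r = 0.98), C1d (0.98) and Pspc1 (0.98), Lmo1 to Stx4a (0.96), Gstp1 (0.95) and Sepp1 (0.95), and Lhx2 to Snx6 (0.97), Col9a3 (0.96) and Akt1 (0.96). Over 11 primary clusters, Helt was closest to Nthl1 (0.98), Sox9 (0.91) and St6galnac5 (0.89), Meis1 to Nfib (0.97), Fgf9 (0.97) and Rcn2 (0.97), and Meis2 to Hoxa2 (0.94), Rcan2 (0.91) and Chn1 (0.90). Sox9 is a gene of glia and their progenitors, and Nfib a factor of granule neuron maturation. The points of each correlation are clusters of 1 library, not samples, so no p is given.

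Relatives of the 6 genes at 20 CPM or more in the granule lineage of either library are called measured here. Most of them stayed within 2-fold between the tumours, as did most genes. Of all measured genes, 2.94% were 2-fold or more higher and 3.54% lower. Helt and Meis2 themselves lay below that level. So did relatives that differed more, such as En1 (376 primary and 81 relapsed UMIs), En2 (157 and 498), Lmo3 (266 and 123) and Bhlhe40 (27 and 210). Others below it, such as Pbx2 (500 and 548) and Hes1 (636 and 964), stayed within 2-fold. Of the TALE list, 7 other genes reached 20 CPM in the granule lineage, 1 was 2-fold or more higher in the relapsed library and 0 lower. That gene was Pbx4, which went from 10.1 to 26.9 CPM (log2 ratio 1.41), and Pknox1 (−0.43) and Tgif1 (−0.26) stayed within 2-fold. Of the NKL homeobox list, 2 other genes were measured, Barhl1 (0.42) and Barhl2 (0.25), and neither reached 2-fold. The bHLH-Orange list had 2, Hey1 (242 to 122 CPM, −0.99) and Hes6 (0.14). Hey1 lay at the 2-fold line and crossed it with doublets kept and without the Hox clusters (−1.04). Of 6 other LIM-only and LIM domain binding genes none reached 2-fold, with Ldb1, which joins LIM proteins, at −0.50, Lmo4 at 0.36 and Lmo2 at 0.30. Lhx1 was the one other LIM homeobox gene measured, at 0.28. Of the list of glutamatergic and GABAergic fate, on which Tlx3 and Helt act elsewhere in the nervous system, 2 of 15 genes were measured, Lhx1 and the glutamate transporter Slc17a6 (−0.20), and both stayed within 2-fold.

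The sorted astrocyte libraries were compared as stroma B against stroma A, with 6718165 to 9434960 reads per stroma A and 8812991 to 11798735 per stroma B library. Values are CPM scaled with TMM factors, as mean ± SD of 3 libraries, and adjusted p-values are from edgeR's quasi-likelihood test over 14176 genes. Nothing says that the libraries came from separate animals, so p-values measure only the spread between these samples. In such bulk libraries fewer cells of a type and less RNA per cell cannot be told apart. Of all genes tested, 0.663% passed an adjusted p of 0.05, 14.2% had all 3 stroma B libraries above all 3 stroma A libraries, and the median log2 fold change was −0.03. Of the 6 members, only Lhx2 passed, and since it was chosen for this difference its passing is a description and no test. Lhx2, Meis1 and the untested Helt had all stroma B libraries above all of stroma A.

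The libraries held RNA of several cell types. The summed level of 12 granule precursor markers was 2220, 1490 and 1425 CPM over the stroma A libraries and 5226, 3888 and 2255 over those of stroma B, with 0 of the markers at 0. That of 12 astrocyte markers was 4786, 3338 and 8625 against 8700, 13988 and 5900. That of 8 oligodendrocyte precursor markers was 18769, 10390 and 10168 against 1945, 2002 and 10137. That of 11 cycling markers lay between 1355 and 1501 in stroma A and between 4093 and 4527 in stroma B, so it separated the groups as Lhx2 did. Stroma B replicate 3 was closest to stroma A replicate 1 across genes (r = 0.95). The part of these cells in the values below was not tested.

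Lhx2 measured 7.19, 6.33 and 6.40 CPM in replicates 1 to 3 of stroma A, and 25.5, 37.3 and 33.5 in those of stroma B. All stroma B libraries lay well above all stroma A libraries, replicate 3 included. The sums of granule and oligodendrocyte precursor markers in that replicate lay nearer to stroma A, and its sum of cycling markers lay with stroma B. The part of any of these in the Lhx2 level was not tested. The means were 6.64 ± 0.474 and 32.1 ± 6.03, apart by 2.27 on the log2 scale (SE 0.27, n = 3 in each group), given as a description because the gene was chosen for this difference (edgeR adjusted p = 0.0383). The difference lay between 2.16 and 2.44 over 10 alternatives, with edgeR or DESeq2 adjusted p-values from 2.03e-08 to 0.239. It ceased to pass when any single library other than stroma B replicate 3 was left out. In each of those fits 0 genes of the whole table passed, so the loss is not particular to Lhx2.

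Meis1 measured 63.9, 58.0 and 49.1 CPM in replicates 1 to 3 of stroma A, and 313, 318 and 99.2 in those of stroma B. The groups did not overlap, but stroma B replicate 3 stood nearer to stroma A than to the other stroma B libraries. The means were 57.0 ± 7.45 and 243 ± 125, and the fitted log2 difference of 2.09 (SE 0.44) did not pass (edgeR adjusted p = 0.0780). It passed without stroma B replicate 3 (edgeR adjusted p = 0.0109), without a filter on low counts (0.0439) and in DESeq2 (adjusted p = 0.000203). In the rest of the 10 alternatives it did not pass, with edgeR adjusted p-values of up to 0.417. The difference lay between 1.77 and 2.49 over all of them. Barhl1, of the granule lineage, was likewise highest in stroma B replicates 1 and 2, at 66.6, 18.4 and 18.2 CPM for stroma A, then 363, 467 and 57.7 for stroma B. So was the astrocyte marker Sox9, at 55.7, 15.3 and 38.3 CPM for stroma A, then 332, 386 and 99.0 for stroma B. The astrocyte marker Slc1a3 was also highest in these replicates, at 2356 and 3795 CPM. Sox10, of oligodendrocyte precursors, was lowest in them, at 114 and 172 CPM. The part of any of these cells in the Meis1 level was not tested.

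Meis2 measured 22.0, 10.7 and 13.4 CPM in replicates 1 to 3 of stroma A, and 8.87, 0.355 and 66.6 in those of stroma B. The stroma B libraries held both the lowest and the highest value of all 6, so the groups overlap. The fitted log2 difference, B minus A, was 0.72 (SE 1.28, adjusted p = 0.771 in edgeR) with all libraries and −1.73 without stroma B replicate 3. Its lowest library, stroma B replicate 2, with 4 reads, had 2453 reads of Hoxb3 (217.5 CPM), 0 of En1 and 6 of En2. Its highest, stroma B replicate 3, had 2 reads of Hoxb3, 46.3 CPM of En1 and 52.4 of En2. Meis2 and Hoxb3, which were high in the same single-cell clusters, were thus at opposite ends in these libraries.

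Tlx3 measured 5.13, 0.413 and 4.61 CPM in replicates 1 to 3 of stroma A, and 16.0, 3.81 and 9.22 in those of stroma B. Stroma B replicate 2 lay below 2 of the stroma A libraries. The fitted log2 difference of 1.50 (SE 0.90) did not pass (adjusted p = 0.359 in edgeR). Lmo1 measured 32.4, 19.5 and 18.1 CPM in replicates 1 to 3 of stroma A, and 11.5, 8.16 and 22.9 in those of stroma B. These groups overlap as well, and the difference of −0.72 (log2, SE 0.45) did not pass either (adjusted p = 0.380 in edgeR). Helt had 0, 2 and 2 reads for stroma A against 6, 6 and 9 for stroma B, too few to be tested. Per length, in the deposited FPKM values, Meis1 had means of 5.42 (A) and 25.9 (B), Lmo1 5.74 and 3.73, Lhx2 0.946 and 5.25, Meis2 0.988 and 1.95, and Tlx3 0.737 and 2.31.

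**Figure D5:**
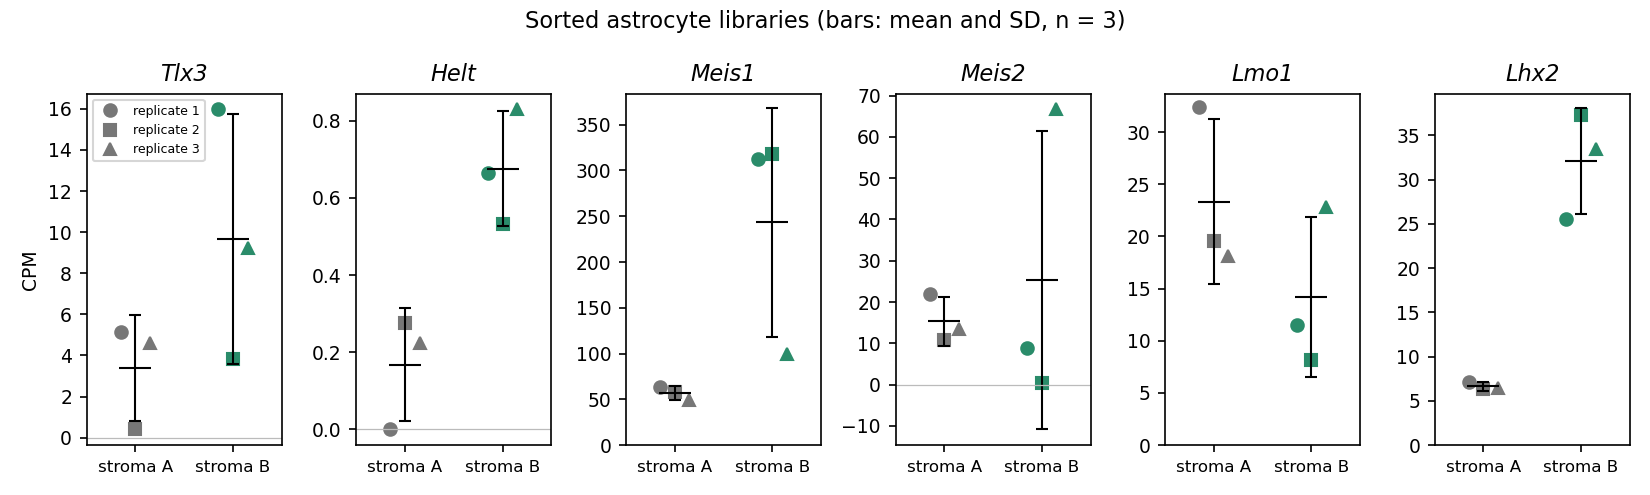
CPM of each gene in the 3 stroma A (grey) and 3 stroma B (green) libraries, on linear axes with their own scales; each symbol is 1 library, with its shape giving the replicate number, and the bars are mean and SD (n = 3). Lhx2, Meis1 and Helt, the last with at most 9 reads per library, do not overlap between the groups, and Meis2 has its lowest and its highest value, 0.355 and 66.6, both in stroma B.

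Of 41 tested relatives that are not members, 0 passed in edgeR, 18 had an unadjusted p under 0.05, and 10 passed in DESeq2, 7 higher and 3 lower in stroma B. Over all genes the counts were 94 (0.663%) and 3095 of 14176 in edgeR and 1728 of 19969 in DESeq2. With the members, the tested numbers were 11 TALE, 8 NKL, 9 bHLH-Orange, 9 LIM-only and LIM domain binding, 3 LIM homeobox and 7 fate genes. Those with the smallest p in each list were as follows. For Pbx3, a partner of Meis proteins, the log2 difference was 1.65 (adjusted p = 0.141 in edgeR). Barhl2 had 3.27 (0.0969 in edgeR) and Nkx6-2, a gene of oligodendrocytes, −3.27 (0.110). Hes1, a Notch effector, went from 7.76 ± 0.891 to 23.2 ± 1.61 CPM (1.58 in log2, SE 0.26, adjusted p = 0.0575 in edgeR), and Hey2 from 31.5 ± 6.05 to 8.92 ± 2.85 (−1.82, edgeR adjusted p = 0.0608). Ssbp3 and Ssbp4, which stabilise LIM domain binding proteins, had 0.91 and −0.87 (edgeR adjusted p = 0.140 and 0.168). Lhx1, which stands in 2 of the lists, had 2.66 (edgeR adjusted p = 0.0736) and Slc17a6 2.56 (edgeR adjusted p = 0.128).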

How the data were processed

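The 2 single-cell matrices hold UMI counts per gene and cell and the bulk table holds read counts per symbol, both as deposited by the authors, beside the authors' FPKM values, which were used only for levels per length. Per the submitters' processing notes, Cell Ranger, STAR, Seurat and mm10 were used. Which tool counted the bulk reads, and whether by strand, is not given in the sources used here, so antisense reads cannot be told apart. The columns of stroma A replicate 2 were matched on the shared start of the name, an assumed match.

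Of 9164 primary barcodes (56332247 UMIs) and 7852 relapsed ones (69403567 UMIs), cells with at least 500 genes and at most 10% mitochondrial UMIs passed. The libraries share 93 barcodes. Scrublet's automatic threshold marked 0 cells in both, so the 6% with the highest doublet scores were removed, 546 and 470. Cells were clustered together with scanpy 1.11.5 (2000 variable genes, 30 components, 15 neighbours, Leiden resolution 1, leidenalg 0.10.2) without integration and named from fixed markers. Names required 3 or more markers raised 4-fold, at 20 CPM and in 20% of cells, and clusters under 0.65 of the median gene number stayed unnamed, 604 and 146 cells. These limits were chosen after seeing the data.

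Bulk counts were filtered with filterByExpr, scaled with TMM factors and tested with edgeR 4.0.16 (R 4.3.3), with Benjamini-Hochberg adjustment over all genes. The procedure was run on simulated counts with the same dispersion for every gene, so its outcome there does not carry over to the spread of these libraries. DESeq2 1.42.0 was an alternative. Promoter stretches and positions are from RefSeq, GRCm38.p6, where all 6 genes matched by symbol.

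The members and lists were chosen with earlier results of these data known. Relatives were named by rule, in the sorted libraries those past the threshold or else the 2 with the smallest p per list. In the single cells they were up to 3 per list with the largest absolute log2 ratio, among those at 20 CPM or more in either library. Relatives named below that level were picked after their values were seen. The 3 most similar genes per member were ranked by Pearson's r of log2(CPM + 10) over clusters of at least 50 cells.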

Additional observations from a re-analysis of the deposited data

How the results depend on the processing

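In all settings tried for the granule lineage (1000 genes per cell, doublets kept, thinning, all kept cells, means per cell, the Hox clusters left out), 3 of the 6 genes were higher in the relapsed library. Of the single-cell log2 ratios, 82 stayed within the counting interval of the reported value and 25 moved outside it, with no change of sign. The limit of 1000 genes per cell gave values identical to the reported ones for every gene. Its ratios, counted among the 82, are therefore no check. With doublets kept, Meis2 had 2 relapsed UMIs, and over all kept cells its log2 ratio was −3.49. Thinned, Helt had −5.61. Meis2 was then 71.3-fold lower against a floor of 3 UMIs, with an upper limit of 0.0174 for relapsed over primary.

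The number of genes that passed in the sorted libraries was 94 in edgeR, 1728 in DESeq2 on 19969 genes, 227 without a filter on low counts, and from 0 to 1342 when 1 library was left out, the highest without stroma B replicate 3. With the pair of libraries that share a number removed it was 0. Of the log2 fold changes of the named genes, 115 kept direction and side of the threshold, 18 newly passed, 6 ceased to pass and 1 reversed. That was Meis2, at 0.72 with all libraries and −1.73 without stroma B replicate 3; leaving out 1 library gave from −1.73 to 1.32. The cause was not tested. No paired analysis was possible because the labels of the 2 stroma groups share a single number. Without a filter Helt differed by 2.11 on the log2 scale (adjusted p = 0.468 in edgeR). Counts under about 3 UMIs limit Helt and Meis2 in the relapsed library.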
